A study of Mus musculus with 11 samples.

Results

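The replication-dependent histone genes lie in clusters, and they were taken here as the genes of the GENCODE annotation for the mouse build mm9 whose symbol starts with Hist1h, Hist2h, Hist3h or Hist4h. The rule found 70 of 37273 annotated genes. Of the 70, 67 are among the 22367 protein-coding genes and 3 are pseudogenes. The Hist1 cluster on chromosome 13 holds 56 genes, Hist2 on chromosome 3 holds 10, Hist3 on chromosome 11 holds 3, and Hist4 on chromosome 6 is a single gene, Hist4h4. By the protein they encode, 6 are genes of the linker histone H1, 20 of H2A, 19 of H2B, 12 of H3 and 13 of H4.

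Replication-dependent histones package newly copied DNA: H2A, H2B, H3 and H4 form the core around which the DNA winds, and H1 binds the DNA between cores. Their genes are transcribed mainly in S phase, and most of their messenger RNAs end in a stem-loop bound by the protein SLBP in place of a poly(A) tail. A neuron that has left the cell cycle no longer copies its genome, and variant histones made outside S phase then take over much of the supply of new histone.

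Open chromatin was measured by ATAC-seq, in which a transposase cuts accessible DNA, in neurons sorted by fluorescence from mouse embryos at embryonic day 14.5, in 3 libraries of dopaminergic (DA) and 2 of serotonergic (5-HT) neurons. DA neurons came from the ventral mesencephalon of TH-GFP embryos, whose sires belonged to a line kept on the C57BL/6J background with GFP driven by the Th promoter. 5-HT neurons came from hindbrain rhombomeres of Mash1-CRE x ROSA YFP embryos, in which the Cre recombinase follows Mash1, a gene of neural progenitors, and its cells and their offspring carry YFP. The dams of both were Swiss wild-type mice, and the tissue of several embryos was pooled for a sort, so that reporter line, brain region and cell type cannot be told apart. In bulk libraries, fewer cells with open chromatin at a gene and less accessibility per cell cannot be told apart either. The authors' files list the same 131942 regions for all libraries, each with a deposited peak score, which is 0 where that library had no peak. No scale is named for it, so scores are compared within a library, and across libraries only as percentiles, the share of the 131942 regions that scored lower, with ties at the middle of their range. Peaks numbered 52861, 93055 and 94351 in DA samples 1, 2 and 3, and 38772 and 22879 in 5-HT samples 1 and 2. No read counts are given, so the depth is unknown. By the paper's methods, more sorted cells went into the DA than into the 5-HT libraries, and cell input, peak number and cell type cannot be told apart.

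The cell type of the libraries was checked at promoters, from 1 kb upstream to 100 bp downstream of the gene start. A peak in all 5 libraries lay at 4 of 10 DA markers and at 1 of 5 5-HT markers, against 45.3% of protein-coding genes. Th, the gene of the rate-limiting enzyme of dopamine synthesis, had no peak at its outermost start, and with windows at any annotated transcript start, chosen after the values were seen, it had scores of 9.91, 10.6 and 8.45 in DA samples 1, 2 and 3, and 0 and 0 in 5-HT samples 1 and 2. Lmx1a, a transcription factor of DA progenitors, scored 5.00, 5.62 and 4.09 in DA samples 1, 2 and 3, and 0 and 0 in 5-HT samples 1 and 2. Fev, a transcription factor that defines 5-HT neurons, had a peak in 5-HT sample 1 alone (3.88), Tph2, which makes serotonin's precursor, had one in all 5 libraries, and Slc6a4, the serotonin transporter, had one in the 3 DA libraries only. En1, Nr4a2, Foxa2 and Pitx3 of the DA list had a peak in all 5 libraries. Peaks in the DA libraries alone thus lay at Th and Lmx1a of the DA list and also at Slc6a4 of the 5-HT list, and no 5-HT marker had peaks in both 5-HT libraries alone. Summed scores of the DA list were 54.8, 58.6 and 49.0 in DA samples 1, 2 and 3, and 29.2 and 16.1 in 5-HT samples 1 and 2, with Pitx3 the highest in the DA libraries, and those of the 5-HT list 14.7, 17.7, 14.9, 15.7 and 3.59 in the same order, with Tph2 the highest. The score has no named scale, and sums at histone promoters were also lower in the 5-HT libraries (506, 639.9, 562, 367 and 229). The sums are therefore not read as a check of cell type. At any transcript start, all 5 libraries had a peak at 5 DA and 2 5-HT markers.

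Of the 70 histone genes, 54 (77.1%) had a peak in all 5 libraries between 1 kb upstream of the start and the gene end, against 53.4% of protein-coding genes. A histone gene is short, with a median of 530.5 bp against 15.427 kb for protein-coding genes, so its window has less room for a peak. Among the protein-coding genes shorter than 1 kb the share was 8.46%. These short genes include histone genes themselves, since 53 of the 70, pseudogenes included, are shorter than 1 kb. In the promoter window alone, 53 histone genes had a peak in all 5 libraries (45.3% of protein-coding genes), and 53 did at any transcript start (48.5%). When a library kept no more than 10000 peaks, its highest by score, the count was 19 of 70 (22.3%), and with peaks above the median score of their library 37 (36.6%). No histone gene combined peaks in the 3 DA libraries with none in the 5-HT libraries (3.06% of protein-coding genes, and 1.87% in the promoter window, where the histone count was again 0), and none had the opposite pattern (0.0134%). No library had a peak at 8 histone genes (25.8%). The remaining 8 had a peak in 4 libraries (6 genes) or in 1 (2 genes). The count of 0 for the DA pattern rests on 5-HT sample 1, and without it 6 genes had that pattern. The share of protein-coding genes without that library was not counted, so whether 6 is many cannot be said.

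By library, 60, 62 and 60 of the 70 genes had a peak in DA samples 1, 2 and 3, and 60 and 54 in 5-HT samples 1 and 2. Among protein-coding genes the shares were 66.6, 71.5, 70.6, 63.8 and 54.9% in the same order. The low value came from 5-HT sample 2, the library with the fewest peaks, and 5-HT sample 1 equalled DA samples 1 and 3. The mean was 60.7 ± 1.15 (SD, n = 3) in DA and 57.0 ± 4.24 (SD, n = 2) in 5-HT neurons, a difference of 3.67 genes (two-sided exact permutation test, p = 0.3). It was 0.667 genes without 5-HT sample 2 and 6.67 without 5-HT sample 1. With peaks above the median score of their library it was 13.5 (p = 0.1, same exact test), from 58, 62, 60, 55 and 38 genes in the order of the libraries, and the shares of protein-coding genes were then 56.0, 64.8, 63.8, 50.8 and 39.0%. With 3 against 2 libraries, an exact permutation test cannot go below p = 0.1. The libraries differ in their number of peaks, so the count was repeated at an equal number.

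With only the 22879 highest-scoring peaks kept in every library, the number in 5-HT sample 2, 54, 53 and 54 histone genes had a peak in DA samples 1, 2 and 3, and 58 and 54 in 5-HT samples 1 and 2. The shares of protein-coding genes were 53.0, 53.3, 51.2, 54.8 and 54.9% in the same order, also higher in the 5-HT libraries. For the histone genes the order of the cell types turned round from that with all peaks, with means of 53.7 ± 0.577 and 56.0 ± 2.83 (difference -2.33, two-sided exact permutation test, n = 3 and 2, p = 0.3). At this number it was -0.333 without 5-HT sample 1 and -4.33 without 5-HT sample 2. With 5-HT sample 2 left out and 38772 peaks kept, 2 choices changed together after the values were seen, it was 0. With each region counted once it was 1.17, and with the 10000 highest-scoring peaks 6.67, so its direction depends on the setting. The 6.67 came from 39, 40, 37, 35 and 29 histone genes in the order of the libraries (two-sided exact permutation test, p = 0.1). The shares of protein-coding genes were then 33.3, 34.8, 32.7, 33.3 and 35.6%. With 22879 peaks kept, 48 genes had a peak in all 5 libraries, against 43.1% of protein-coding genes. A peak in both 5-HT libraries and no DA library then appeared at 1 histone gene (1.85% of protein-coding genes at this number), Hist1h4i, an H4 gene with scores of 5.18, 5.98 and 4.86 in DA samples 1, 2 and 3, and 5.45 and 3.18 in 5-HT samples 1 and 2 before the limit, named after its values were seen.

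The score of a gene was the highest of the regions in its window. The median over the 70 genes stood at percentile 93.3, 93.7 and 93.1 in DA samples 1, 2 and 3, and 92.5 and 92.0 in 5-HT samples 1 and 2. All 3 DA values lay above both 5-HT values, with means of 93.4 ± 0.304 and 92.2 ± 0.347 and a difference of 1.17 points (two-sided exact permutation test, n = 3 and 2, p = 0.1, the smallest possible). In the same test p was 0.2 in the promoter window and at any transcript start. It was also 0.2 from gene start to gene end and with each region counted once. With the scores in a window summed and the sums ranked among all genes, 2 choices changed together, the difference was -3.08. With 1 of these changed, chosen after the values were seen, it was 3.10 for the highest score among all genes and 1.46 for the sum among all regions. Over the genes with a peak in all 5 libraries it was 0.584. The medians of protein-coding genes were 84.9, 85.1, 83.5, 85.8 and 86.1 and had the other order. Among genes with a peak, the median histone score was 8.49, 10.7 and 9.50 in DA samples 1, 2 and 3, and 6.00 and 3.99 in 5-HT samples 1 and 2. The highest histone scores were 15.4, 19.0, 17.4, 8.86 and 6.86 in this order, and the highest of all peaks 223, 167, 213, 151 and 133. Histone genes thus ranked high and stayed far below the top of each library. Among protein-coding promoters with a peak, 56.9, 58.2, 60.8, 53.9 and 38.5% scored below the median histone promoter, which places the histone promoters near the middle of promoters with a peak.

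**Figure D1:**
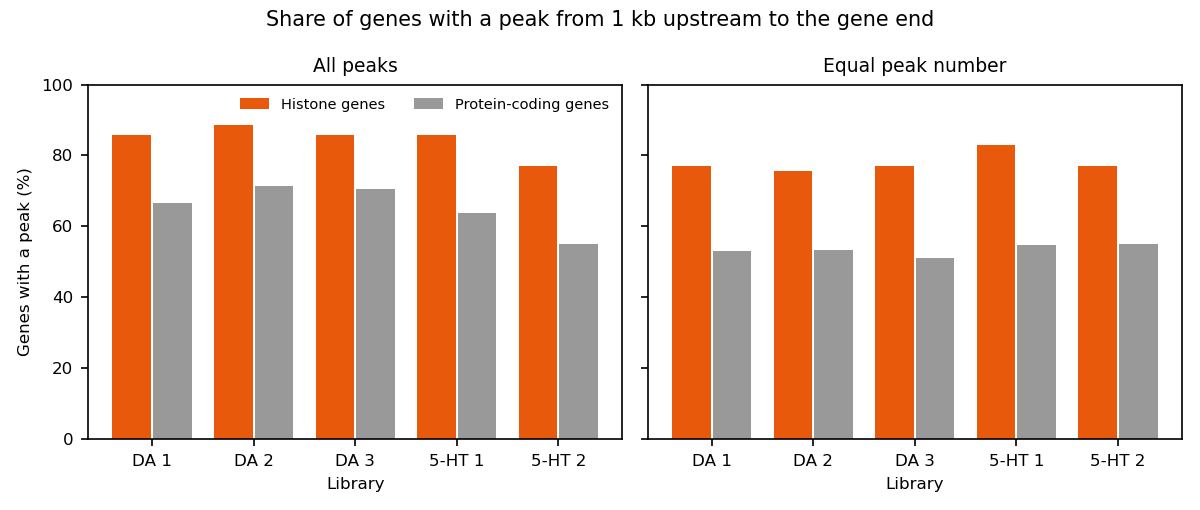
Horizontal axis, the 5 libraries, and vertical axis, percent of genes with a peak from 1 kb upstream to the gene end, for the 70 histone genes (orange) and the protein-coding genes (grey), with all peaks and with 22879 peaks a library. Histone genes lie between 77.1 and 88.6% with all peaks, above protein-coding genes in each library.

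Linker histones compact the fiber of nucleosomes, and 5 of their 6 genes had a peak in all 5 libraries (53.4% of protein-coding genes). Where a region had to overlap the window by 100 bp, the count was 4 of 6, which ended the call of Hist1h1b. No share of protein-coding genes is given for that overlap. Hist1h1b (ENSMUSG00000058773.2, chr13:21871752-21872494, minus strand), the gene of H1.5, had scores of 13.4, 13.5 and 14.5 in DA samples 1, 2 and 3, and 7.76 and 4.15 in 5-HT samples 1 and 2. This region, chr13:21870882-21871797, overlaps the 3′ end of the gene by 46 bp, and a region over its start, chr13:21872304-21872577, had a peak in DA sample 2 alone (3.20). With the overlap of 100 bp or the promoter window, Hist1h1b had a peak in that library only. Hist1h1a, the gene of H1.1, had scores of 7.79, 10.8 and 9.28 in DA samples 1, 2 and 3, and 5.47 and 4.24 in 5-HT samples 1 and 2. Hist1h1c, the gene of H1.2, had 8.59, 10.4, 9.18, 5.90 and 4.13 in the same order. Hist1h1d, the gene of H1.3, had 8.02, 8.64, 8.07, 5.14 and 3.23. Hist1h1e, the gene of H1.4, had 8.02, 11.4, 8.62, 6.00 and 3.94. All 4 scored below Hist1h1b in the DA libraries and in 5-HT sample 1. Hist1h1t (ENSMUSG00000036211.2, chr13:23787680-23788588, plus strand) encodes a linker histone of male germ cells and had no peak in any library.

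The 250 bases upstream of Hist1h1b and of Hist1h1t are shown because these H1 genes had the highest and the lowest mean percentile. The high percentile of Hist1h1b comes from the region at its 3′ end and not from these bases. Capitals mark the motifs CCAAT and TATAAA, on either strand, and no ATTTGCAT lay in them.
Hist1h1b upstream, chr13:21872495-21872744, minus strand: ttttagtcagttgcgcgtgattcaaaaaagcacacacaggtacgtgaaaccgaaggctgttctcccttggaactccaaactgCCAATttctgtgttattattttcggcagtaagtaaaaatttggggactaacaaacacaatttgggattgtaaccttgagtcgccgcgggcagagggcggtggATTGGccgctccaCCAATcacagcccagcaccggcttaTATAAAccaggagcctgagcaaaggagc
Hist1h1t upstream, chr13:23787430-23787679, plus strand: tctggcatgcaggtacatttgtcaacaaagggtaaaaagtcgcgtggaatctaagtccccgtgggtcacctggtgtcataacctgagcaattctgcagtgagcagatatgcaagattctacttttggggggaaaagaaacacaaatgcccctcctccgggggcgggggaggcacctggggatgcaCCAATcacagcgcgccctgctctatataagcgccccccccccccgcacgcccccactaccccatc
Both hold CCAAT, and TATAAA was found upstream of Hist1h1b only.

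H2A and H2B pair in the nucleosome, and their genes are paired too. Of 20 H2A genes 14 had a peak in all 5 libraries and 3 had none. Of 19 H2B genes 16 had a peak in all 5 and 3 had none. The shares of protein-coding genes were 53.4 and 25.8%. Among genes with a peak the median score of H2A was 8.74, 10.5 and 10.3 in DA samples 1, 2 and 3, and 6.59 and 4.02 in 5-HT samples 1 and 2. For H2B it was 8.83, 11.4, 11.1, 6.68 and 4.08 in the same order. H2A includes 3 genes that lack a peak in 5-HT sample 2. Over the genes with a peak in all 5 libraries, the H2A medians were 8.96, 11.41, 10.8, 6.62 and 4.02 in the same order. Those of H2B were 8.83, 11.42, 11.1, 6.68 and 4.08, higher in all libraries but DA sample 1. The gene model of Hist1h2be, an H2B gene, spans 37383 bp and gives it the widest window. Starts facing away from each other were found in 15 pairs, of which 14 join an H2A with an H2B gene and 1 joins Hist1h2bh with Hist1h3f. In the 14, the starts lay between -88 bp, where the genes overlap, and 305 bp apart, with a median of 199.5 bp. In 11 of the 14 pairs, 1 region covered both starts and had a peak in all 5 libraries, and the other 3 pairs had no region. Both genes of a pair therefore share their values and are not independent measurements.

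Hist1h2an (ENSMUSG00000069309.2, chr13:21878695-21879087, minus strand) and its partner Hist1h2bp (ENSMUSG00000069308.7, chr13:21879330-21881082, plus strand) had the highest mean percentile of the H2A and of the H2B genes. Their region scored 13.2, 15.3 and 17.4 in DA samples 1, 2 and 3, and 8.08 and 5.28 in 5-HT samples 1 and 2. The 3 H2A and 3 H2B genes without a peak in any library tie as the lowest, and Hist1h2ao and Hist1h2bq, also a pair, come first among them by position. Hist1h2ah and Hist1h2bk shared a region scored 11.3, 12.9 and 14.0 in DA samples 1, 2 and 3, and 8.17 and 6.68 in 5-HT samples 1 and 2. For Hist1h2ac and Hist1h2bc it scored 10.8, 11.5, 11.3, 6.93 and 4.98 in the same order. These 2 pairs, chosen after their values were seen, have regions with a peak in all 5 libraries and show how the motifs sit in a spacer.

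All 13 spacers with at least 1 base hold CCAAT, 5 hold TATAAA and 6 hold ATTTGCAT, the octamer bound by POU2F1. Capitals mark these motifs on either strand.
Hist1h2ah and Hist1h2bk spacer, chr13:22127513-22127689, plus strand: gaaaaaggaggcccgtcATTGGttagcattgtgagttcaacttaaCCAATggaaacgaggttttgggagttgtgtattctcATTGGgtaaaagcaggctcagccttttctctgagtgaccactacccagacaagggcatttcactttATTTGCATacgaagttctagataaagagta
Hist1h2ac and Hist1h2bc spacer, chr13:23775818-23776067, plus strand: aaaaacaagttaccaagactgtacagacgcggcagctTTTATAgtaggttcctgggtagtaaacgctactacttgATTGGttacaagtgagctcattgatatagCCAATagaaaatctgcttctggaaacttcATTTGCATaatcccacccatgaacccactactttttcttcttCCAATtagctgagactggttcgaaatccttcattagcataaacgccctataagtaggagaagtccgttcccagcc
Both spacers hold the octamer and CCAAT in several copies.

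H3 and H4 form the tetramer at the heart of the nucleosome. Of 12 H3 genes, 9 had a peak in all 5 libraries (53.4% of protein-coding genes). None of the 12 was without a peak (25.8%). Their median score, over genes with a peak, was 8.49, 10.2 and 9.72 in DA samples 1, 2 and 3, and 5.87 and 3.81 in 5-HT samples 1 and 2. Hist1h3g (ENSMUSG00000062417.5, chr13:23627291-23627820, plus strand) had the highest mean percentile of the Hist1 H3 genes and scored 15.4, 14.0 and 12.8 in DA samples 1, 2 and 3, and 6.73 and 6.86 in 5-HT samples 1 and 2. In DA sample 1 and in 5-HT sample 2 no histone gene scored higher than Hist1h3g. Hist1h3c (ENSMUSG00000069310.2, chr13:23836842-23837471, minus strand), the lowest of them, scored 6.66, 8.45 and 7.53 in DA samples 1, 2 and 3, and 5.61 and 4.90 in 5-HT samples 1 and 2. Its scores were below those of Hist1h3g in all 5 libraries. The H3 genes of the clusters encode the replication-dependent H3 proteins, and 11 protein-coding H3 genes encode 2 distinct proteins.
Hist1h3g upstream, chr13:23627041-23627290, plus strand: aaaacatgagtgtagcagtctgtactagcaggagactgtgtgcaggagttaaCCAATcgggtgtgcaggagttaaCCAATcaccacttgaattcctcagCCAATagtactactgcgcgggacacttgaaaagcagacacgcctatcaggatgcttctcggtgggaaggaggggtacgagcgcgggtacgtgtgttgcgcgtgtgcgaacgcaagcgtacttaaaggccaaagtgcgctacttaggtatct
Hist1h3c upstream, chr13:23837472-23837721, minus strand: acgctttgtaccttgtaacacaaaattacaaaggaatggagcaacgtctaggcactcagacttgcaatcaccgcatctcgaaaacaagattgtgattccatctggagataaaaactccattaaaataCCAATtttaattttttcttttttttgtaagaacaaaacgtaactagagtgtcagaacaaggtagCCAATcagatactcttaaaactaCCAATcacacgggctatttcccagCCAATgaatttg
The 250 bases upstream of this highest and this lowest H3 gene both hold CCAAT, in capitals, in more than 1 copy.

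The 13 H4 genes all encode the same protein. Of these, 10 had a peak in all 5 libraries (53.4% of protein-coding genes), 1 had none (25.8%), and 2 had a peak in some. Their median score, over genes with a peak, was 7.79, 10.3 and 8.41 in DA samples 1, 2 and 3, and 5.47 and 3.91 in 5-HT samples 1 and 2. Hist1h4h (ENSMUSG00000060981.4, chr13:23622919-23623388, plus strand), at the edge of the distal block of Hist1, scored 9.29, 15.4 and 12.4 in DA samples 1, 2 and 3, and 8.74 and 5.88 in 5-HT samples 1 and 2. Hist1h4m (ENSMUSG00000069306.3, chr13:21903615-21904016, plus strand) had no peak, and Hist1h4n had a peak of 10.5 in DA sample 2 alone, in a region of 110 bp. Genes of 1 identical protein thus ranged from a peak in all libraries to no peak. In the sequences upstream of the highest and the lowest H4 gene, capitals mark TATAAA, and neither holds CCAAT.
Hist1h4h upstream, chr13:23622669-23622918, plus strand: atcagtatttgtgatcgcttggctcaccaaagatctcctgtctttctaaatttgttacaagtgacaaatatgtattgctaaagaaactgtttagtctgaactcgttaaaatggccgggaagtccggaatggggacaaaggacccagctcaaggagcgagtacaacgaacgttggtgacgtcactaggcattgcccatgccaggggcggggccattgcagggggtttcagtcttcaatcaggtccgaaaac
Hist1h4m upstream, chr13:21903365-21903614, plus strand: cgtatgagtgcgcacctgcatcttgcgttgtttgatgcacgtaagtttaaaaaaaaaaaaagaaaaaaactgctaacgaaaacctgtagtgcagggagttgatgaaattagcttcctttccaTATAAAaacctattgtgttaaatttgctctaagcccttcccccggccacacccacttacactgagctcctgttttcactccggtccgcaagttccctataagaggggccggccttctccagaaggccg
CCAAT was found upstream of 4 of the 13 H4 genes.

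**Figure D2:**
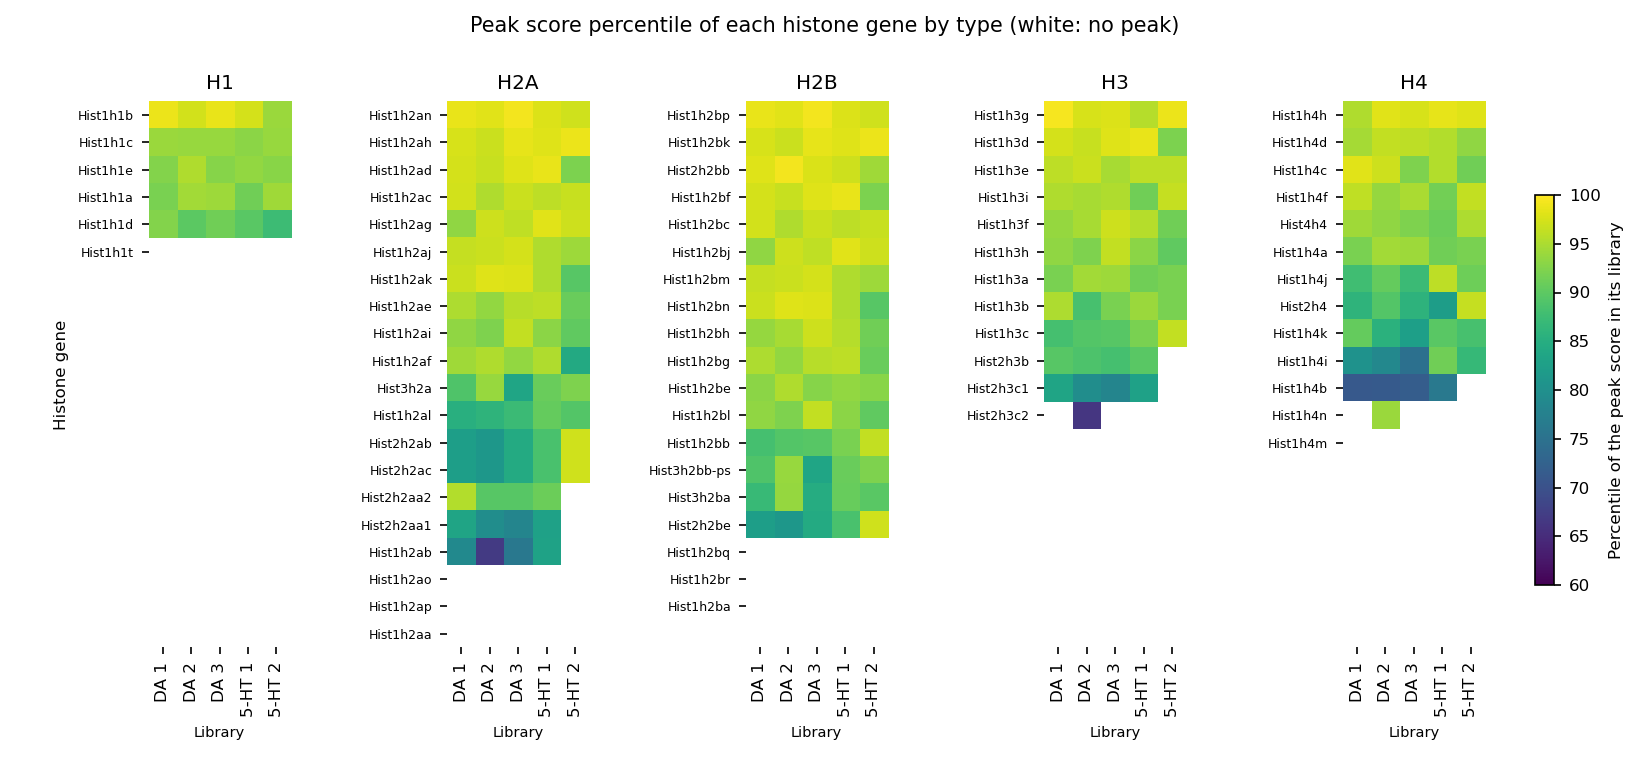
Each panel is a histone type, with its genes from the highest to the lowest mean percentile (vertical) and the 5 libraries (horizontal); color gives the percentile of the score within the library, and white no peak. The 8 genes without a peak in any library are 1 of H1, 3 of H2A, 3 of H2B and 1 of H4, and every gene with some white lacks a peak in 5-HT sample 2.

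The 56 Hist1 genes lie in a proximal block of 24, a distal block of 31, and the single gene Hist1h2al far from both. A peak in all 5 libraries lay at 18 genes of the proximal block and at 26 of the distal block (53.4% of protein-coding genes). Such a peak also lay at the H2A gene Hist1h2al. It scored 6.02, 7.46 and 6.91 in DA samples 1, 2 and 3, and 5.30 and 3.42 in 5-HT samples 1 and 2. All 8 genes without a peak belong to Hist1. They are Hist1h2bq, Hist1h2ao, Hist1h4m, Hist1h2ap and Hist1h2br in the proximal block, and Hist1h1t, Hist1h2ba and Hist1h2aa in the distal block. The last 3 encode histones found in the testis, and Hist1h2ba and Hist1h2aa are a divergent pair.

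The 5 genes without a peak in the proximal block lie in an inverted repeat. A stretch of 19.5 kb, chr13:21884832-21904278, recurs on the other strand at chr13:21923401-21942792 with 98.87% identity, and the deposited regions number 0 in the left and 1 in the right copy. The whole window of each gene, from 1 kb upstream to the gene end, was searched for other places in the genome that match at 98% identity or more over at least 200 bp. The copied share of the window was over 90% for 6 histone genes, Hist1h2bq, Hist1h2ao, Hist1h4m, Hist1h4n, Hist1h2ap and Hist1h2br, of which 5 had no peak and 1 had a peak in 1 library. Of 38 genes with a smaller copied share, 32 had a peak in all 5 libraries (53.4% of protein-coding genes), 5 in 4 and 1 in 1. Of 26 with no copy, 22 had a peak in all 5 libraries, 1 in 4, and 3 had none (25.8% of protein-coding genes). These 3 are the testis genes Hist1h1t, Hist1h2ba and Hist1h2aa. Whether reads of copied sequence were dropped before peaks were called was not tested.

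The spacers of both pairs in this repeat are shown because they are the same sequence. Over their 167 bases they have 0 differences when 1 is read on the other strand. Capitals mark CCAAT on either strand.
Hist1h2bq and Hist1h2ao spacer, chr13:21902069-21902235, plus strand: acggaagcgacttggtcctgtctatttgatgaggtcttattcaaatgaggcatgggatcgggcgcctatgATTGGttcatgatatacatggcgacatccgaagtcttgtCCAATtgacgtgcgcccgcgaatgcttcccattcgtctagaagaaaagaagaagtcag
Hist1h2ap and Hist1h2br spacer, chr13:21925445-21925611, plus strand: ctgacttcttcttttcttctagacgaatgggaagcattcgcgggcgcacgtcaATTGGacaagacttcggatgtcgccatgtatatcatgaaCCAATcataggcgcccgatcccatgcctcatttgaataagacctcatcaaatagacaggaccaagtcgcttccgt
CCAAT occurs in them as in the spacers with a peak.

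**Figure D3:**
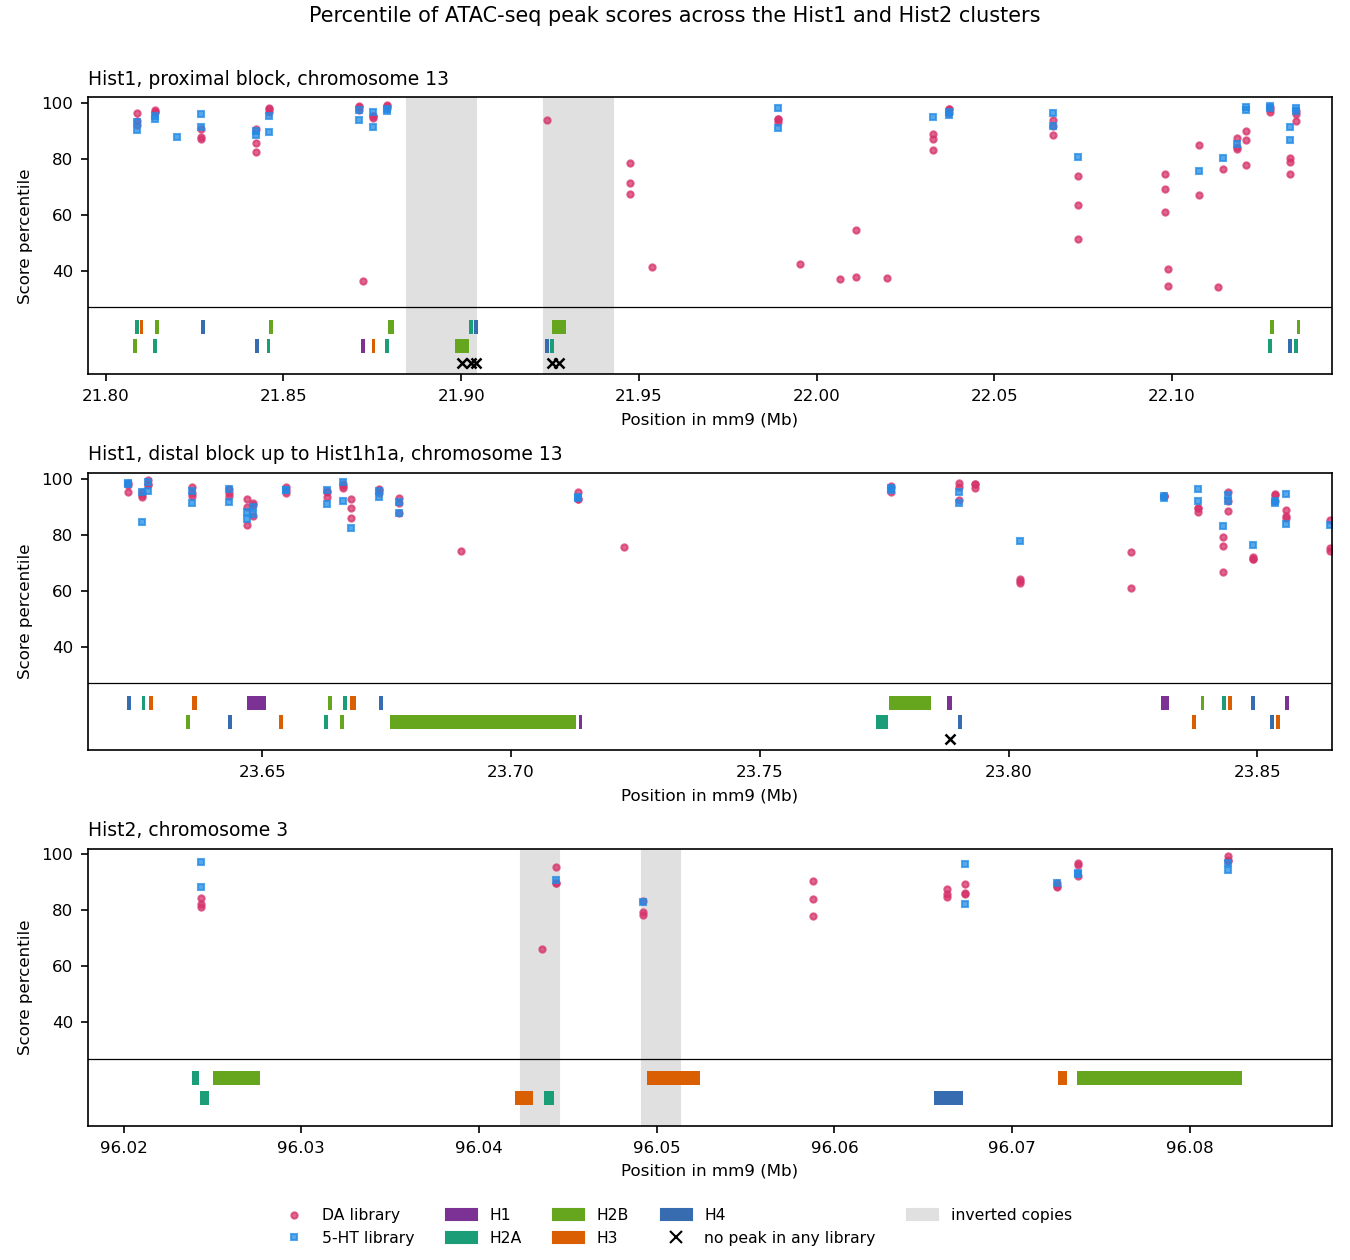
Horizontal axes, position in mm9 in Mb, and vertical axes, percentile of the score of each region with a peak, 1 point a library, with genes as bars below (upper track plus strand, lower minus; Hist2h2aa1 overlaps Hist2h3c1). Crosses are genes with no peak in any library, 5 of them in the grey inverted copies of chromosome 13.

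In Hist2, a peak in all 5 libraries lay at 5 of 10 genes, near the 53.4% of protein-coding genes, and in Hist1 at 45 of 56. At equal peak number the counts were 1 of 10 and 43 of 56, against 43.1% of protein-coding genes, and those of Hist2 rest on scores just under the lowest score kept. Hist2h2ab, Hist2h2ac and Hist2h2be, on 1 region, had 5.49 in DA sample 1, where 5.54 was kept, and 6.41 in DA sample 2, where 6.70 was kept, and Hist2h4 had 4.14 in 5-HT sample 1, where 4.18 was kept. The clusters were not compared by a test. The median score of Hist2 genes with a peak was 5.66, 6.41 and 6.29 in DA samples 1, 2 and 3, and 4.92 and 5.27 in 5-HT samples 1 and 2, and that of Hist1 genes was 8.98, 11.2, 10.6, 6.62 and 3.94 in the same order. Hist2 was lower in the 3 DA libraries and in 5-HT sample 1, and higher in 5-HT sample 2, where it is the median of 5 genes. Except in DA sample 1, this Hist2 median is the score of 1 region, counted for each of its 3 genes. The medians of the clusters thus depend on how genes share regions. Hist2h2ab, an H2A gene, and the divergent H2A and H2B genes Hist2h2ac and Hist2h2be shared 1 region scored 5.49, 6.41 and 6.29 in DA samples 1, 2 and 3, and 4.92 and 5.27 in 5-HT samples 1 and 2. Hist2h2bb, another H2B gene, scored 11.9, 19.0 and 12.5 in DA samples 1, 2 and 3, and 7.44 and 4.23 in 5-HT samples 1 and 2 through a region at its 3′ exon, chr3:96081766-96082513. In DA sample 2 no other histone gene reached that score. At its promoter Hist2h2bb scored 7.90, 13.0, 10.8, 5.87 and 4.04 in the order of the libraries, in DA sample 2 below Hist1h4h at 15.4. Hist2h4, an H4 gene, scored 6.18, 8.42, 6.61, 4.14 and 4.91 in the same order.

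The other 5 Hist2 genes had no peak in 5-HT sample 2, where 54.9% of protein-coding genes had one. Hist2h2aa2, an H2A gene (ENSMUSG00000064220.4, chr3:96043639-96044216, minus strand), scored 9.40, 8.57 and 7.55 in DA samples 1, 2 and 3, and 5.38 and 0 in 5-HT samples 1 and 2. Hist2h2aa1 and Hist2h3c1, an H2A and an H3 gene on 1 region, scored 5.66, 6.12, 5.27, 4.20 and 0 in the same order. Hist2h3b, an H3 gene, scored 7.03, 8.25, 7.16, 5.14 and 0. The annotated start of Hist2h3c1 lies 1197 bases before its first coding base. The region it shares with Hist2h2aa1 covers that start and does not reach its coding bases. The pseudogene Hist2h3c2 had a peak in DA sample 2 alone (4.56). A repeat of 2.11 kb, chr3:96042385-96044496 and inverted at chr3:96049181-96051288 with 99.574% identity, reaches into Hist2h3c2, Hist2h2aa2, Hist2h2aa1 and Hist2h3c1, and none of its 3 regions had a peak in all 5 libraries. Its part in these values was not tested. Inside Hist2h4, a separate region, chr3:96066116-96066555, had scores of 6.16, 7.94 and 6.36 in the DA libraries and none in the 5-HT libraries. It was the 1 region with that pattern among the 50 regions at histone genes, and 13.4% of all deposited regions have it.

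In Hist3, the H2B gene Hist3h2ba scored 6.38, 10.4 and 6.37 in DA samples 1, 2 and 3, and 5.33 and 3.48 in 5-HT samples 1 and 2. The H2A gene Hist3h2a and the pseudogene Hist3h2bb-ps shared a region scored 6.87, 10.5, 6.12, 5.37 and 3.82 in the same order, which also covers the start of Trim17. Hist4h4, an H4 gene alone on chromosome 6, scored 8.79, 10.2 and 8.41 in DA samples 1, 2 and 3, and 5.41 and 4.44 in 5-HT samples 1 and 2. All 4 genes had a peak in every library (53.4% of protein-coding genes).

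Between the cell types, the largest DA minus 5-HT differences in mean percentile were at Hist2h2aa2 (25.5), Hist2h3b (23.3) and Hist2h3c1 (18.3, with Hist2h2aa1 on the same region). Each had a peak in 5-HT sample 1 and none in 5-HT sample 2. At the other end, the 8 genes without a peak in any library tie, and Hist1h2bq, Hist1h2ao and Hist1h4m come first among them by position. Their value (-18.7) only reflects the percentile of a score of 0, at 30.0, 14.7, 14.2, 35.3 and 41.3 in the 5 libraries. Among genes with a peak in all libraries, chosen after their values were seen, the lowest differences were -11.1 at Hist1h4i and -10.1 at Hist2h2ab, Hist2h2ac and Hist2h2be. Besides the 4 Hist2 genes above, Hist1h2ab and Hist1h4b lacked a peak in 5-HT sample 2 only, the library where 54.9% of protein-coding genes had one. Hist1h2ab, an H2A gene, scored 4.99, 4.59 and 5.01 in DA samples 1, 2 and 3, and 4.23 and 0 in 5-HT samples 1 and 2. Hist1h4b, an H4 gene, scored 4.15, 5.01, 4.57, 3.63 and 0 in the same order.

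Over the 39 regions at histone genes with a peak in all 5 libraries, Spearman's rho of the scores was 0.787 to 0.825 between DA libraries, 0.725 to 0.781 between a DA library and 5-HT sample 1, and 0.333 to 0.449 between 5-HT sample 2 and the others. Over all 16856 such regions, rho was 0.890 to 0.903 between DA libraries and 0.743 to 0.757 between a DA library and 5-HT sample 1. There, 5-HT sample 2 stood at 0.668 to 0.672 with the others. These describe regions, which share a library and are not replicates. The 50 regions at histone genes had a median width of 943 bp against 340 bp for all regions, and 1180 against 1091 bp among those with a peak in all 5 libraries. Of the 50, 18 served more than 1 histone gene, and 40 of the 70 genes lay on such a region.

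The histone genes share sequence that the rule did not use. CCAAT, searched on both strands in the 250 bases upstream of the start, occurred at 58 of 70 genes (82.9%) and at 35.0% of protein-coding genes. By type it occurred at 6 of 6 H1, 19 of 20 H2A, 19 of 19 H2B, 10 of 12 H3 and 4 of 13 H4 genes. TATAAA occurred at 33 genes (47.1%, against 12.3%). ATTTGCAT occurred at 16 genes (22.9%, against 1.62%), 7 of H2A and 9 of H2B, and at no H1, H3 or H4 gene. The sequences compared differ in base content, with a median GC of 44.6% upstream of the histone genes and 54% upstream of protein-coding genes, and AT-rich motifs match more often by chance in AT-rich sequence. No motif contains another. Genes of a divergent pair share the bases between their starts, so the same motif site can be counted at both genes. Of the 13 spacers of H2A and H2B pairs, 13 hold CCAAT, 5 hold TATAAA and 6 hold ATTTGCAT. The counts and percentages are therefore of genes, and distinct sites were not counted. A match is a description and says nothing about binding. For 9 of the 67 protein-coding histone genes the annotated start is the first coding base, so that their upstream window may hold part of the transcript's leader. At Hist2h3c1 and Hist1h2be the annotated start lies 1197 and 35168 bases before the first coding base, so their upstream windows are far from the coding sequence.

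The stem-loop that ends replication-dependent histone messages was searched in the 100 bases after the stop codon. A match lay at 63 of 67 protein-coding histone genes (94.0%) and at 65 of 21920 protein-coding genes with an annotated stop codon (0.297%). The other 2 genes are H2afx, whose variant histone marks DNA breaks, and 1700014N06Rik. Between the stop codon and the match lay 21 to 58 bases, with a median of 30. The 63 genes carry 8 distinct sequences of 16 bases, and the 3 commonest are shown in capitals.
In 39 genes, of H1, H2A, H2B and H3: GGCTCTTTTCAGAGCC
In 9 genes, of H1, H2A, H2B and H3: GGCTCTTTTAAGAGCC
In 8 genes, all of H4: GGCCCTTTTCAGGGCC
The first lies at chr13:23831381-23831396, plus strand, in Hist1h1c, and the last at chr13:23623327-23623342, plus strand, in Hist1h4h. All 13 H4 genes had a match. The genes without one were Hist2h2be, Hist2h2bb, Hist1h2an and Hist1h2al. Hist1h2an had the highest mean percentile of the H2A genes. Of the 8 genes without a peak, each had a match.

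The proteins differ in how much the genes of a type repeat each other. The 13 H4 genes encode 1 protein and the 11 protein-coding H3 genes 2, while 19 H2A genes encode 10, 18 H2B genes 11, and the 6 H1 genes 6 distinct proteins.

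Between the first and the last histone gene of each block lay 79 regions, 48 of them at histone genes. Of these 48, 37 had a peak in all 5 libraries, and of the 31 others 4 did, against 16856 of all 131942 deposited regions. Among the others, 10 had a peak in a single library. A further 4 of the others had a peak in the 3 DA libraries only (13.4% of all deposited regions). The highest-scoring of those 4, chosen after its values were seen, is chr13:23793184-23793343, beyond the 3′ end of Hfe, a gene of iron uptake, with 12.0, 14.6 and 11.1 in the DA libraries. The other 3 are chr13:21947150-21947928, chr13:22097850-22098287 and chr3:96058697-96058897. Of the other protein-coding genes within the blocks, Zfp184, a zinc-finger gene, was also named after its values were seen. At its promoter it scored 11.7, 14.6 and 10.9 in DA samples 1, 2 and 3, and 7.26 and 4.58 in 5-HT samples 1 and 2. Gm17658 and Trim17 had a promoter peak in all 5 libraries too (45.3% of protein-coding genes), on the regions of Hist1h4d and of Hist3h2a. Hfe and Pom121l2 had one in 4, and Prss16, Trim38, Slc17a1, Slc17a2, Slc17a3 and Slc17a4 had none. Regions with a peak in all 5 libraries thus lay mostly at histone genes within these blocks.

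Other genes of histone supply were set beside them by the promoter window. Of 13 replication-independent histone genes, 8 had a peak in all 5 libraries, and 9 at any transcript start, against 45.3 and 48.5% of protein-coding genes. H2afv, which encodes a histone of the H2A.Z type and was named after its values were seen, scored 22.9, 34.3 and 28.0 in DA samples 1, 2 and 3, and 15.2 and 7.76 in 5-HT samples 1 and 2. H3f3b, a gene of the variant H3.3, and H2afy, a gene of macroH2A, had no peak at the outermost start, and H3f3b had 10.8, 15.6, 13.5, 7.51 and 5.34 at another start and H2afy 5.04, 4.95, 4.94, 4.83 and 0. H1f0, a linker histone of cells that have stopped dividing, lacked a peak in 5-HT sample 2 only and scored 6.30, 9.27 and 6.31 in DA samples 1, 2 and 3, and 4.75 and 0 in 5-HT samples 1 and 2. H1foo and H1fnt, of oocytes and spermatids, had none.

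Of 18 genes of histone transcription and 3′ end processing, 16 had a peak in all 5 libraries, and 18 at any transcript start (45.3 and 48.5% of protein-coding genes). Npat and Slbp were named after their values were seen. Npat, the coactivator of histone transcription, scored 21.0, 21.4 and 21.2 in DA samples 1, 2 and 3, and 10.3 and 11.4 in 5-HT samples 1 and 2. Slbp, which binds the stem-loop, scored 10.3, 18.0, 9.43, 6.95 and 4.88 in the same order. Zfp473, a processing factor, and Coil, the coilin of Cajal bodies, had no peak at the outermost start and one in all 5 libraries at another. Npat scored above every histone gene in all 5 libraries. All 8 histone chaperone genes had a promoter peak in all 5 libraries (45.3%).

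Markers of cycling cells bear on S phase, and 11 of 12 had a promoter peak in all 5 libraries, against 45.3% of protein-coding genes. Top2a, which untangles DNA, lacked one in 5-HT sample 2 and scored 7.60, 10.4 and 8.90 in DA samples 1, 2 and 3, and 6.65 and 0 in 5-HT samples 1 and 2. Summed scores of the list were 143, 164, 152, 92.1 and 66.5 in the order of the libraries, with Ccna2 the highest, and summed scores at histone promoters were 506, 639.9, 562, 367 and 229. All 6 radial glia markers had a peak in all 5 libraries, with summed scores of 31.4, 36.0, 33.1, 28.8 and 21.9 and Hes1 the highest in DA sample 2. With no named scale for the score, these sums are not read as differences between cell types. The part of cycling cells in the histone values was not tested.

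Among markers of other cells a promoter peak in all 5 libraries, found at 45.3% of protein-coding genes, lay at 1 of 3 for GABA neurons, 0 of 2 for glutamate neurons, 0 of 3 for endothelium, 0 of 2 for pericytes, 0 of 3 for microglia and 0 of 3 for oligodendrocytes. At any transcript start (48.5%) the counts were 2, 0, 0, 0, 0 and 1. Several of these genes had a peak in 4 libraries. Slc17a6, a glutamate transporter, scored 9.97, 12.9 and 12.8 in DA samples 1, 2 and 3, and 3.65 and 0 in 5-HT samples 1 and 2, above the scores of Th in the DA libraries. Slc32a1, the transporter of GABA, scored 5.07, 4.76, 3.92, 3.69 and 0 in the same order, and Cldn5, of endothelial junctions, 4.86, 4.94, 5.22, 4.62 and 0. Olig2, a factor of the oligodendrocyte lineage, scored 0, 4.36, 4.42, 4.73 and 4.27. Pdgfra and Pdgfrb had a peak in DA samples 2 and 3 and Rgs5 in DA sample 2, while Gad1, Slc17a7, Pecam1, Cdh5 and Sox10 had none at the outermost start. At any start Gad1 had 4.84, 4.45, 4.12, 4.60 and 3.19 and Pdgfra 5.33, 6.65, 5.74, 4.93 and 3.75, and the other 4 without a peak still had none. The part of such cells in the histone values was not tested. The microglia genes Aif1, Csf1r and Cx3cr1 had no peak in any library. Of the DA list, Lmx1b and Slc6a3 lacked a peak in 5-HT sample 2, Slc18a2 in 5-HT sample 1, and Ddc at the outermost start in all 5, with 6.27, 6.46, 7.91, 5.67 and 3.08 at another. Of the 5-HT list, Gata2 had none at the outermost start and Gata3 had one in DA sample 2 and 5-HT sample 1, and at any start Gata2 had 0, 3.11, 0, 4.20 and 0 and Gata3 6.98, 4.52, 4.65, 5.17 and 7.51.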

How the data were processed

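ATAC-seq peaks of 5 libraries, 3 of DA and 2 of 5-HT neurons, were used, grouped by their labels. The RNA-seq samples of the study were not analysed here. The authors trimmed reads with Trimmomatic, checked them with FastQC, used Bowtie2 to align them to mm9 and Picard to drop duplicates, and called peaks with MACS2. HOMER is also named among their tools. No versions are given. The deposited unit is a score for each of 131942 regions, with no scale named and 0 where a library has no peak. Peaks less than 100 bp apart had been merged by the authors. The depth is unknown, so no interval is given. In 1 line a misspelled chromosome name was corrected.

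The annotation was GENCODE for mm9. A region counted at a gene when it overlapped, by at least 1 bp, the window from 1 kb upstream of the gene start to the gene end, and the gene took the highest score in its window. Means of 3 DA and 2 5-HT libraries were compared by two-sided exact permutation tests over libraries, whose smallest p is 0.1. Shares of genes were set beside the same shares of protein-coding genes, with no test, since genes are not replicates. Alternatives were other windows, an overlap of 100 bp, distinct regions, protein-coding genes only, stricter or equal numbers of peaks, sums of scores, and leaving out each library. Windows at any transcript start, other sets to rank scores among, a reset of the equal number and protein-coding shares at stricter settings were added after the values were seen. Motifs were matched letter by letter on both strands of the mm9 genome sequence, and the stem-loop by its pattern within 100 bases after the stop codon. Copies were found with BLAST+ 2.17.0.

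The genes and lists were chosen with earlier results of these data known. Named genes were all of Hist2, Hist3, Hist4 and H1, the testis variants, genes with no peak or with a peak in 1 cell type only, in each type of Hist1 the gene with the highest and the lowest mean percentile, the 3 largest differences between cell types in each direction, and from each list the genes without a peak in all 5 libraries. The highest gene of a marker list, H2afv, Npat, Slbp and Zfp184 fall outside this rule and were named after their values were seen. The lists were markers of DA, 5-HT, GABA and glutamate neurons, radial glia, cycling cells, endothelium, pericytes, microglia and oligodendrocytes, and genes of replication-independent histones, of histone transcription and 3′ end processing and of histone chaperones, with the other protein-coding genes inside the blocks. The computations used Python 3.11.15, NumPy 2.4.6, pandas 2.3.3, SciPy 1.17.1, samtools 1.23.1, pysam 0.24.0, Biopython 1.88 and matplotlib 3.10.9, and were tested on simulated data.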

Additional observations from a re-analysis of the deposited data

How the results depend on the processing

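Of 72 alternatives over the 5 results, 64 kept the direction or, for a count, stayed within 1.5 times the reported one, and no p passed 0.05, which 3 against 2 libraries cannot do. The difference in genes with a peak ranged from 0.667 to 13.5 (peaks above the median score of their library) and stayed above 0. Leaving out a library gave 0.667 (without 5-HT sample 2) to 6.67 (without 5-HT sample 1). At equal peak number the difference of -2.33 became 1.17 with distinct regions and 6.67 with the 10000 highest-scoring peaks, and leaving out a library gave -4.33 to -0.333. It was 0 with 5-HT sample 2 left out and 38772 peaks kept, 2 choices changed together after the values were seen. The median percentile difference became -3.08 with summed scores ranked among all genes, 2 choices changed together. With 1 of them changed, chosen after the values were seen, it was 3.10 (highest score among all genes) and 1.46 (sums among all regions). It was 0.584 over the genes with a peak in all libraries, and leaving out a library gave 0.926 to 1.42. The count of 0 genes with the DA pattern became 1 with distinct regions (13.4% of all deposited regions) and 2 with peaks above the median score of their library. These 2 are Hist2h2aa1 and Hist2h3c1, on 1 region, named after their values were seen. Leaving out a library gave 0 to 6. The shares of protein-coding genes were not counted at that cut or with a library left out, so whether 2 or 6 is many cannot be said. The 54 genes with a peak in all libraries became 19 with the 10000 highest-scoring peaks, since fewer peaks remain, 37 with peaks above the median score, and 54 to 60 with a library left out. Counted as distinct regions they were 39. In a replicate block, with samples 1 and 2 paired by number and DA sample 3 not used, the differences were 4, -2.5 and 1.30, and such pairs share only a number. The cause of these changes was not tested. The unknown depth and 2 5-HT libraries limit every comparison, and absence of a peak is not absence of open chromatin.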
